A study of Rattus norvegicus with 5 samples.

Results

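The genes described here lie along proximal rat chromosome 4, on both sides of Cd36, the fatty acid translocase gene. They were chosen by position from a list of 55 genes. The platform annotation gave 35 of the 55 a probe set of their own in the deposited table, out of 7589 genes with 1 symbol. The other 20 were not analysed here: Rint1, Magi2, Sema3c, Sema3d, Sema3e, Grm3, Dbf4, Adam22, Sri, Steap4, Cdk14, Krit1, Ankib1, Akap9, Gatad1, Cdk6, Sgce, Peg10, Slc25a13 and Dlx6. All 55 were placed on chromosome 4 by the RefSeq table of assembly GRCr8, with Nub1 first and Asns last, and Cd36 between Gnat3 and Sema3c. The rule left out Cd36 itself and Pdk4, Cyp51, Crot, Abcb1a, Abcb1b and Abcb4, so the list is not a complete account of the neighbourhood.

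Livers came from 4-month-old male rats on standard chow, 8 of each strain. The PD strain is the progenitor, and the congenic strain, named PD.SHR4 in the sample labels and PD.SHR4a in the series text, has a stretch of chromosome 4 from SHR, the spontaneously hypertensive rat, on the PD background. The cDNA of the 8 rats of a strain was pooled and hybridised to 3 arrays for PD and 2 for PD.SHR4, so p-values measure the spread between arrays, which may be technical, and not between rats. Where the SHR segment begins and ends is not given in the sources used here, and which members lie inside it was not tested. Hepatocyte markers were bright in both strains, with a mean log2 value over 10 measured markers of 12.42 to 12.45 on the PD arrays and 12.42 to 12.44 on the PD.SHR4 arrays. Of the 10, 4 lay higher and 2 lower in PD.SHR4 with no overlap between the strains' arrays. That is 60%, where 31.9% of all probe sets had no overlap. Array medians were 5.21 to 5.38, and all pairs of arrays correlated at r = 0.986 to 0.994 over the 8797 probe sets.

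A congenic strain differs from its progenitor both at the gene of interest and at whatever neighbours came along on the same segment. SHR carries a defective Cd36 gene and is used as a model of impaired fatty acid uptake. The genes on either side have unrelated functions: the segment's neighbourhood holds paraoxonases made by the liver, a growth factor, G protein subunits, ion channels, guidance molecules, imprinted genes and an amino acid synthetase. The members alone cannot show how far a difference at Cd36 is accompanied by differences around it, because the rule left out some neighbours.

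None of the 35 measured members passed the test between the strains (limma, adjusted p under 0.05 over all probe sets), where 0.932% of all probe sets did. Of the 35, 18 had log2 differences (PD.SHR4 minus PD) above 0 and 17 below, with a median of 0.017, against 0.003 over all named genes. The differences ran from -0.89 in Asns to 0.58 in Hgf. Asns alone (2.86% of the members) differed by more than 1.5-fold, against 7.30% of all named genes. The single probe set for Cd36 and its paralogue Cd36l1, which lie between the same neighbours, had a log2 difference of -3.19 ± 0.26 (SE; limma, adjusted p = 0.0149). Leaving out 1 array gave -3.52 to -2.85, and adjusted p exceeded the threshold when PD array 3 (0.0516), PD.SHR4 array 1 (0.105) or PD.SHR4 array 2 (0.130) was omitted. At an unadjusted p under 0.05 there were 2 members, Gnat3 and Hgf, a share of 5.71% where 13.8% of all probe sets had it. Without PD array 2 there were 6 members (17.1%), where 17.4% of all probe sets had it.

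**Figure D1:**
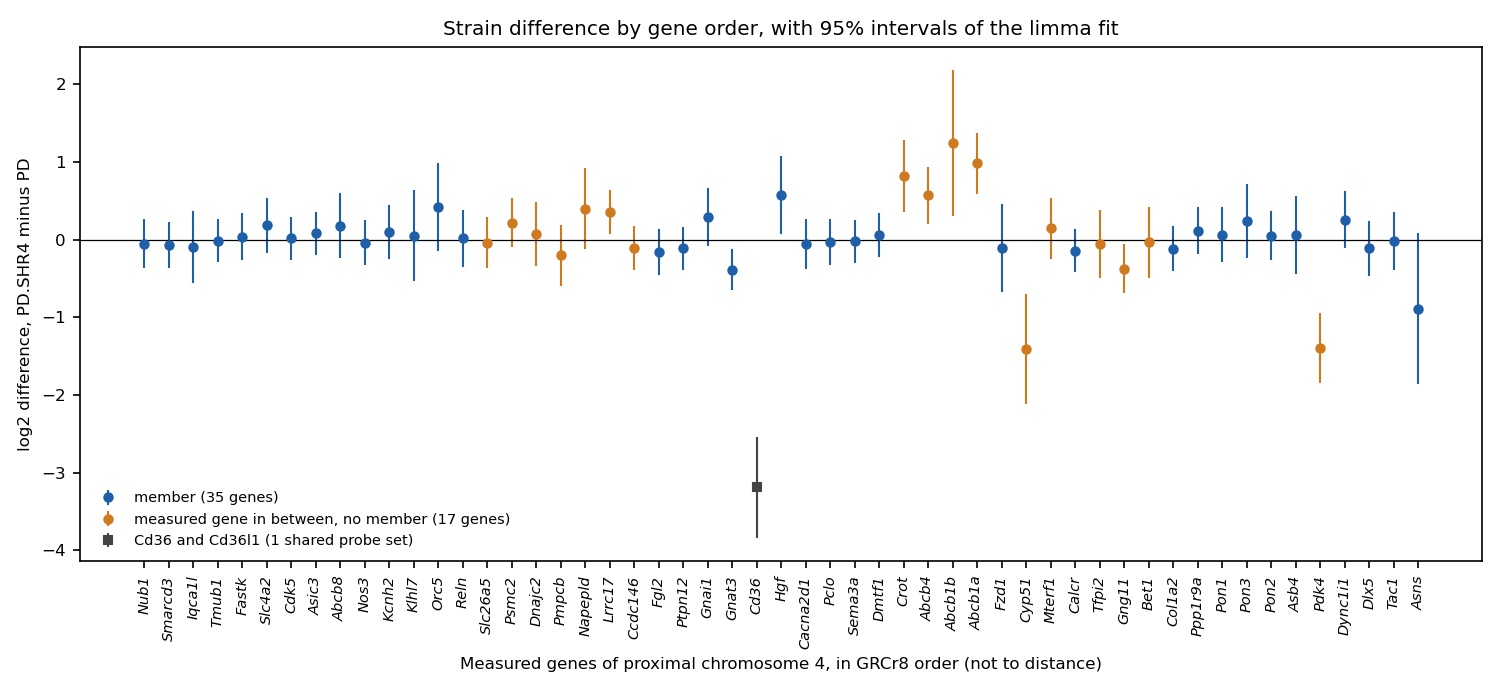
Log2 difference (PD.SHR4 minus PD, y axis) of each measured gene from Nub1 to Asns, in GRCr8 gene order and not to distance (x axis). Points are limma estimates from 3 PD and 2 PD.SHR4 arrays, lines their 95% intervals. The members, in blue, lie between -0.89 and 0.58. The 17 other measured genes of the span, in orange, lie between -1.41 and 1.24, and the Cd36 probe set lies at -3.19.

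The interval of a difference says how large a change between the pooled samples the arrays could have missed. Like the p-values, it rests on the spread between arrays and not between rats. For 25 of the 35 members (71.4%) the 95% interval lay wholly within 1.5-fold either way, against 53.7% of all named genes. Among the 28 members not below the lower quartile on every array it was 19 (67.9%), against 51.4% of such named genes. A narrow interval of a dim member does not bound a change in its transcript. For 33 members (94.3%) the 95% interval lay within 2-fold, against 87.3% of all named genes. The exceptions among the members were Hgf, with an upper bound of 1.08, and Asns, with a lower bound of -1.86. The median absolute log2 difference was 0.096 over the members and 0.15 over all named genes. The strains did not overlap in 7 members, 2 higher and 5 lower in PD.SHR4. That is 20% of the members, where 31.9% of all probe sets had no overlap, 14.8% higher and 17.1% lower.

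The genes that the rule left out had larger differences than most members. Between Nub1 and Asns, 17 further genes were measured. The 6 of them that the rule leaves out all had strains that did not overlap, and their absolute log2 differences had a median of 1.11. Pdk4, the pyruvate dehydrogenase kinase that spares glucose in fasting, fell (-1.40 ± 0.18, SE; limma, adjusted p = 0.0448), but it did not pass without PD array 1 or 3 or either PD.SHR4 array, where adjusted p was 0.0730 to 0.373. Cyp51, the lanosterol demethylase, measured -1.41 ± 0.29, the drug transporter Abcb1a 0.98 ± 0.16 and the peroxisomal acyltransferase Crot 0.82 ± 0.19 (limma, adjusted p = 0.102, 0.0671 and 0.134). Abcb1a passed without the dimmest 25% of probe sets, after quantile normalisation, after median centring and with array weights (adjusted p = 0.0437, 0.0426, 0.0481 and 0.00642), Cyp51 with the replicate block and with array weights (0.0308 and 0.00938), and Crot with the block (0.0496). The other 11 had a median absolute log2 difference of 0.14, and none of them passed. Over all 52 measured genes of the span, members included, that median was 0.11 and 32.7% had no overlap, against 31.9% of all probe sets. Of the 52, 10 (19.2%) had an unadjusted p under 0.05, against 13.8% of all probe sets. A difference of more than 1.5-fold was seen in 11.5%, against 7.68% of all probe sets. The left-out genes were set apart with earlier results of these arrays known, so the low shares among the members are partly the outcome of that choice.

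**Figure D2:**
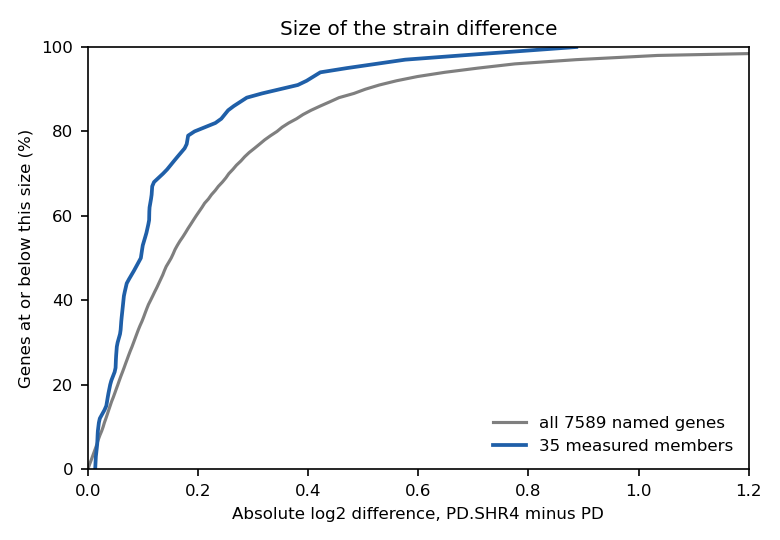
Cumulative share of genes (y axis, percent) with an absolute log2 difference between the strains up to the value on the x axis, for the 35 measured members and all 7589 named genes. The members reach a share of 50% at 0.096 and all named genes at 0.15; the members exclude the left-out genes of the span.

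The nearest measured genes before Cd36 encode alpha subunits of the inhibitory G protein family. Gnai1, which lowers cyclic AMP, measured 4.05, 4.26 and 3.96 on the PD arrays and 4.51 and 4.25 on the PD.SHR4 arrays. PD array 2 lay within the PD.SHR4 range, and the log2 difference was 0.29 ± 0.15 (SE; limma, adjusted p = 0.485). Gnat3, the gustducin subunit known from taste cells, measured 2.60, 2.60 and 2.58 in PD and 2.20 and 2.22 in PD.SHR4. Every value lay below the lower quartile of its array (2.84 to 2.93), so a transcript in liver is not shown. The strains did not overlap, and the log2 difference of -0.39 ± 0.11 did not pass (limma, adjusted p = 0.190). Its 5 values spread little within a strain, with an SD of 0.010 over the 3 PD arrays.

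The nearest measured genes after Cd36 are Hgf and Cacna2d1. Hgf, hepatocyte growth factor, is made in the liver by stellate cells and acts on hepatocytes. It measured 5.90, 6.45 and 5.87 in PD and 6.63 and 6.67 in PD.SHR4. Both PD.SHR4 arrays lay above all PD arrays, and PD array 2 lay closer to them than to the other PD arrays. The log2 difference was 0.58 ± 0.20 (SE, a 1.49-fold higher level; 95% interval 0.078 to 1.08; limma, adjusted p = 0.287). Cacna2d1, an auxiliary subunit of voltage-gated calcium channels, measured 2.18 to 2.45 in PD and 2.25 and 2.26 in PD.SHR4, again below the lower quartile.

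The start regions of the 3 measured genes closest to Cd36 are shown, from 250 bases before to 50 bases after the RefSeq start (GRCr8), because these genes flank Cd36 most closely among those measured and include both members with an unadjusted p under 0.05. They come from RefSeq's reference rat, not from PD or SHR. Capitals mark matches to a motif searched for on both strands.
Gnai1, chr4:17705811-17706110, plus strand: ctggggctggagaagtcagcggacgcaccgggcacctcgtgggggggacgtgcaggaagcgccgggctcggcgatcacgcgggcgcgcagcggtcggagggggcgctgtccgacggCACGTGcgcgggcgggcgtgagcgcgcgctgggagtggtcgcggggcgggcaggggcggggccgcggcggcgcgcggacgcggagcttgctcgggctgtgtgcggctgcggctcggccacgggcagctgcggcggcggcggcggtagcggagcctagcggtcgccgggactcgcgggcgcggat
Gnat3, chr4:18104283-18104582, minus strand: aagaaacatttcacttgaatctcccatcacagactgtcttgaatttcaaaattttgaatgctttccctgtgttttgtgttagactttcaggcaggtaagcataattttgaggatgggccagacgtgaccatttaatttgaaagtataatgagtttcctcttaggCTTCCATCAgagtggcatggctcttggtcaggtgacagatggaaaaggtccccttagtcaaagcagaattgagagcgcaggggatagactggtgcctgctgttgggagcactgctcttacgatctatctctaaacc
Hgf, chr4:19700418-19700717, minus strand: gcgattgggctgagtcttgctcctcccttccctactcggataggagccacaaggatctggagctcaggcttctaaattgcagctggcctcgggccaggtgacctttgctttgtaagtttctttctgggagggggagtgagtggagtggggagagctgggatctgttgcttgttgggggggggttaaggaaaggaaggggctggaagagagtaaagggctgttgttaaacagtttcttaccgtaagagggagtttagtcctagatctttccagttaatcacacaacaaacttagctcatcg
The motifs were the E-box CACGTG, the C/EBP-ATF response element TGATGNAAN, the D-box TTATGNAA, a sterol element TCACNCCAC and an interferon element (GAAA, any 2 bases, GAAA). The capitals in the Gnai1 window are an E-box, which 4 of 35 members' windows held (11.4%) and 6.42% of 33469 windows genome-wide. Those in the Gnat3 window match the C/EBP-ATF response element on the opposite strand, held by no other member and by 3.97% of all windows. The Asns window thus held none, and of 16 windows of measured amino acid response genes 1 did (6.25%). A window without a match does not show that a gene lacks the element elsewhere. The Hgf window held no match, and no member's window held the other 3 motifs. No member's window held both kinds of match, so none could overlap.

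**Figure D3:**
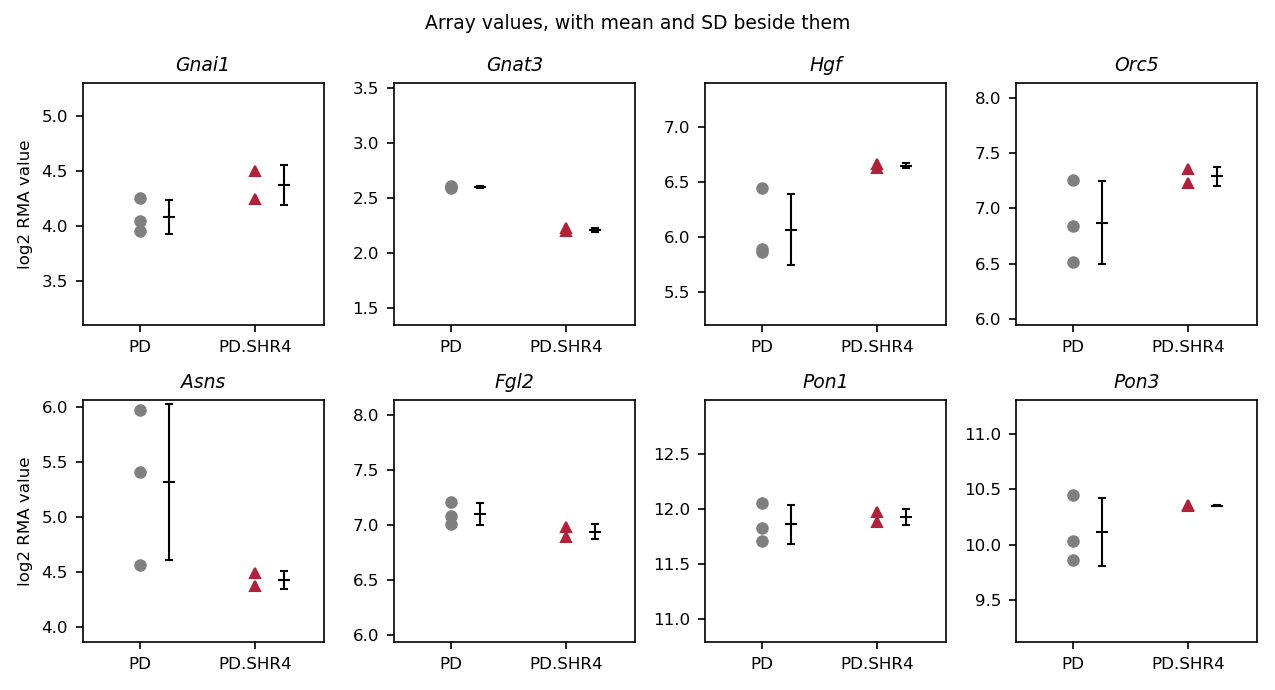
Log2 RMA values of 8 members on each PD array (circles) and PD.SHR4 array (triangles), with the mean and SD beside them; every panel spans the same range of 2.2 log2 units. Gnat3, Hgf, Asns and Fgl2 do not overlap between the strains, and Asns has the widest PD spread, 4.57 to 5.98.

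Among secreted and matrix genes, 4 of 4 were measured and none passed. Fgl2, fibrinogen-like protein, which macrophages and T cells secrete, measured 7.21, 7.08 and 7.01 in PD and 6.89 and 6.98 in PD.SHR4. The strains did not overlap by a margin smaller than the spread within either, and the log2 difference was -0.16 ± 0.12 (SE; limma, adjusted p = 0.663). Reln, the glycoprotein reelin of stellate cells, differed by 0.018 ± 0.15, and Col1a2, a collagen chain that stellate cells deposit in fibrosis, by -0.12 ± 0.12. No marker of another cell type passed the test, and 17.1% of all probe sets lay lower and 14.8% higher with no overlap. Of 7 measured Kupffer cell and macrophage markers none passed, 6 (85.7%) lay lower in PD.SHR4 with no overlap, and their mean level was 9.19 to 9.39 on the PD arrays and 8.82 to 8.84 on the PD.SHR4 arrays. Of 8 lymphocyte markers none passed and 6 (75%) lay lower with no overlap, at a mean level of 5.21 to 5.43 in PD and 4.65 to 4.68 in PD.SHR4. Of 10 stellate cell and fibroblast markers none passed and 4 (40%) lay lower with no overlap, at 6.05 to 6.49 in PD and 5.999 to 6.05 in PD.SHR4. Of 3 neutrophil markers 2 lay lower and 1 higher with no overlap, at 5.08 to 5.46 in PD and 4.96 to 4.97 in PD.SHR4, and both erythroid markers lay lower, at 8.68 to 8.99 and 8.37 to 8.53. Of 3 cholangiocyte markers 1 lay higher with no overlap and none lower, with a median log2 difference of 0.22 and a mean level of 5.01 to 5.48 in PD and 5.39 on both PD.SHR4 arrays. In whole tissue, fewer cells of a type and less RNA per cell cannot be told apart, and the part of these markers in the values of Fgl2, Col1a2 and Hgf was not tested. Of the stellate markers only Lum was below the lower quartile on all arrays, and no measured macrophage or lymphocyte marker was. None of the 10 endothelial markers on the fixed list was measured.

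Genes that act with Hgf were mixed. Of 11 measured genes of hepatocyte growth factor signalling none passed, with a median log2 difference of 0.026. At an unadjusted p under 0.05, 2 were lower, against 7.92% of all probe sets. They were Hgfac, the serum protease that activates the Hgf precursor (-0.62 ± 0.14, SE; limma, adjusted p = 0.121), and Plau, urokinase, another activator (-0.50 ± 0.11; limma, adjusted p = 0.135). Hgfac measured 10.39, 10.20 and 10.39 in PD and 9.82 and 9.59 in PD.SHR4, opposite in sign to Hgf. The inhibitor Spint2 differed by -0.20 ± 0.11 and the plasminogen activator Plat by 0.33 ± 0.17 (limma, adjusted p = 0.550 and 0.476).

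The paraoxonases are esterases of liver and plasma, and Pon1 and Pon3 travel on high-density lipoprotein. All 3 lie together in gene order and were among the 6 members with the highest values, a property of each probe set that does not rank transcripts. Pon1 measured 11.71, 12.06 and 11.83 in PD and 11.88 and 11.98 in PD.SHR4, and its log2 difference was 0.065 ± 0.14 (SE; limma, adjusted p = 0.910). Pon2, the intracellular member of the family, measured 10.10, 10.32 and 10.13 in PD and 10.18 and 10.29 in PD.SHR4, with a difference of 0.053 ± 0.13. The strains overlapped in both genes, and their 95% intervals reached no further than 0.42. Pon3 measured 9.86, 10.45 and 10.03 in PD and 10.35 and 10.35 in PD.SHR4. Its difference of 0.24 ± 0.20 had an interval of -0.24 to 0.72, the widest of the 3, and came to 0.11 with PD array 1 omitted and 0.41 with PD array 2 omitted. In all 3 genes PD array 1 was the lowest of the 5 arrays and PD array 2 the highest. Of 10 measured genes of high-density lipoprotein none passed, with a median of 0.039. The receptor Scarb1, which takes cholesterol from these particles, measured 0.44 ± 0.12 (limma, adjusted p = 0.189), the exporter Abca1 0.33 ± 0.15 (0.423), the acyltransferase Lcat 0.20 ± 0.13 (0.604) and the lipase Lipc -0.29 ± 0.20 (0.625).

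Asns, the last member in order, makes asparagine and is induced by Atf4 when amino acids are short. It measured 5.41, 4.57 and 5.98 in PD and 4.49 and 4.37 in PD.SHR4. The strains did not overlap, but PD array 2 lay within 0.1 of a PD.SHR4 array while the PD arrays spanned 1.41. The log2 difference of -0.89 ± 0.39 (SE, 1.85-fold lower) had a 95% interval of -1.86 to 0.085 and did not pass (limma, adjusted p = 0.411). Without PD array 2 it was -1.26 and without PD array 3 it was -0.56. Genes of the same amino acid response were mostly below 0, 14 of 17 measured, where 3750 of 7589 named genes were. A cause shared with Asns was not tested. The 17 had a median of -0.27, and none passed. At an unadjusted p under 0.05, 3 were lower and 1 higher, against 7.92% and 5.84% of all probe sets. These were Psph, of serine synthesis (-0.54 ± 0.12, SE), the transcription factor Atf4 itself (-0.43 ± 0.13), the growth inhibitor Ddit4 (-0.62 ± 0.20) and the aminotransferase Gpt2 (0.50 ± 0.16), with adjusted p of 0.119 to 0.252 (limma). Atf4 measured 10.43, 10.35 and 10.51 in PD and 10.12 and 9.89 in PD.SHR4. Trib3, a pseudokinase induced by Atf4, is named after its values were seen. It measured 7.16, 5.56 and 7.11 in PD and 5.03 and 5.81 in PD.SHR4. The strains overlapped, and the log2 difference of -1.19 ± 0.54 (SE) did not pass (limma, adjusted p = 0.423). Like Asns, Trib3 was lowest among the PD arrays on array 2. So were the other measured genes of this response except Eif4ebp1, Cebpb, Vldlr and Shmt2. Nos3, the endothelial nitric oxide synthase, measured 5.51 to 5.69 in PD and 5.53 and 5.56 in PD.SHR4, a difference of -0.041 ± 0.12. Of 10 measured nitric oxide signalling genes none passed, none had an unadjusted p under 0.05 and the median was 0.15. The smallest p values were those of Pde5a, which breaks down cyclic GMP (-0.24 ± 0.13), the guanylate cyclase subunit Gucy1a1 (0.26 ± 0.14), the arginase Arg1 (0.17 ± 0.11) and Gch1, which makes the cofactor of nitric oxide synthase (0.31 ± 0.20).

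The 3 measured members of cell cycle and replication were Orc5, Cdk5 and Dmtf1, and none passed. Orc5, a subunit of the origin recognition complex, measured 6.51, 7.26 and 6.84 in PD and 7.23 and 7.35 in PD.SHR4. PD array 2 lay among the PD.SHR4 values, and the difference of 0.42 ± 0.23 (SE; limma, adjusted p = 0.510) had an interval of -0.14 to 0.99. With PD array 1 omitted the difference was 0.24, and with PD array 2 omitted 0.62. Cdk5, a cyclin-dependent kinase best known from neurons, measured 6.92 to 7.03 over all arrays, and Dmtf1, a transcription factor that activates the Arf tumour suppressor, 6.31 to 6.49. Their intervals lay within 0.35 of 0. Of 11 measured partners of these kinases and of origin firing none passed and the median was 0.038. Mcm7, of the replicative helicase, measured -0.56 ± 0.17 (limma, adjusted p = 0.229) and was the only partner with an unadjusted p under 0.05, 9.09% of them against 13.8% of all probe sets. The cyclins Ccnd1 and Ccnd2 measured 0.54 ± 0.23 and -0.33 ± 0.14, and the kinase inhibitor Cdkn1b 0.22 ± 0.12. Leaving out 1 array gave 0.25 to 0.83 for Ccnd1.

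Channels, pumps and carriers were represented by 5 of 7 listed members, with differences of -0.059 to 0.18, and none passed. Slc4a2, the chloride and bicarbonate exchanger of bile secretion, measured 6.85, 7.21 and 7.05 in PD and 7.23 and 7.20 in PD.SHR4, a difference of 0.18 ± 0.14 (SE; limma, adjusted p = 0.677). Abcb8, a transporter of the mitochondrial inner membrane, measured 6.22 to 6.67 in PD and 6.52 and 6.70 in PD.SHR4. Kcnh2, the cardiac potassium channel, and Asic3, an acid-sensing channel of sensory neurons, measured 3.95 to 4.28 and 3.08 to 3.24 over all arrays. The Asic3 strains did not overlap, at a difference of 0.084 ± 0.11.

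Of the remaining G protein genes, receptors and peptides, Fzd1, a Wnt receptor, measured 7.72, 7.09 and 7.54 in PD and 7.54 and 7.15 in PD.SHR4. Its strains overlapped almost entirely, with a difference of -0.11 ± 0.23 (SE; limma, adjusted p = 0.907). Calcr, the calcitonin receptor, and Tac1, the substance P precursor, were dim throughout, at 2.22 to 2.46 and 1.62 to 1.95. Calcr was lower in PD.SHR4 with no overlap, by -0.14 ± 0.11. Of 7 measured Wnt pathway genes none passed or had an unadjusted p under 0.05, and the median was -0.033, with Fzd4 at -0.31 ± 0.20, Fzd5 at 0.25 ± 0.17, the ligand Wnt5a at 0.17 ± 0.13 and the target Axin2 at -0.15 ± 0.13. Leaving out 1 array gave -0.43 to -0.14 for Fzd4 and 0.0070 to 0.50 for Fzd5. Of 12 measured G protein signalling partners none passed, 8 were above 0 and the median was 0.21. At an unadjusted p under 0.05, 3 were higher, against 5.84% of all probe sets: the alpha subunits Gna11 (0.49 ± 0.13) and Gnai3 (0.48 ± 0.16) and the adenylate cyclase Adcy6 (0.41 ± 0.14), with adjusted p of 0.169 to 0.270 (limma). Gnb1, a beta subunit, measured 0.29 ± 0.16. Gnai3, the close relative of Gnai1, measured 8.46, 8.87 and 8.86 in PD and 9.23 and 9.20 in PD.SHR4.

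Protein turnover and related genes had small differences, and none passed. Of 6 listed, 5 were measured, with differences from -0.11 to 0.050. Fastk, a mitochondrial RNA-binding protein, measured 7.84, 7.96 and 7.76 in PD and 7.85 and 7.93 in PD.SHR4 (0.037 ± 0.12, SE). Tmub1, a ubiquitin-like membrane protein, measured 7.44, 7.47 and 7.37 in PD and 7.47 and 7.36 in PD.SHR4 (-0.014 ± 0.11). Both genes had intervals within 0.34 of 0. Ptpn12, a tyrosine phosphatase, measured 7.13, 7.24 and 7.18 in PD and 7.10 and 7.04 in PD.SHR4, with no overlap but a difference of only -0.11 ± 0.11 (limma, adjusted p = 0.762). Nub1, which sends NEDD8 conjugates to the proteasome, and Klhl7, a cullin adaptor, differed by -0.051 and 0.050, and Klhl7 spanned 5.96 to 6.74 within PD.

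The remaining members belong to tissues other than liver or to imprinted and developmental gene groups. Of the imprinted domain, Ppp1r9a, an actin-binding protein of synapses, measured 1.93, 1.96 and 2.13 in PD and 2.15 and 2.10 in PD.SHR4 (0.12 ± 0.12, SE), and Asb4, a ubiquitin ligase adaptor, 2.60 to 3.11 and 2.69 and 2.99. Dlx5, a homeobox factor of bone and forebrain, measured 2.67, 2.33 and 2.42 in PD and 2.39 and 2.33 in PD.SHR4 (-0.11 ± 0.14). Smarcd3, a chromatin remodelling subunit of heart and muscle, measured 4.33 to 4.54 in PD and 4.32 and 4.39 in PD.SHR4. None of these strains was separated from the other. Of the scaffolds and motors, Dync1i1, a neuronal dynein chain, measured 2.69, 2.61 and 2.83 in PD and 3.13 and 2.81 in PD.SHR4 (0.26 ± 0.15; limma, adjusted p = 0.544), and the presynaptic protein Pclo 2.42 to 2.60 over all arrays. Sema3a, a secreted guidance cue and the only measured semaphorin of 4 listed, measured 2.92, 2.97 and 2.85 in PD and 2.87 and 2.92 in PD.SHR4 (-0.021 ± 0.11). Of the listed semaphorin receptors and their partners 3 were measured and none passed, with a median of 0.091. They were Nrp1 at -0.34 ± 0.14, Nrp2 at 0.23 ± 0.13 and L1cam at 0.091 ± 0.12 (limma, adjusted p = 0.362, 0.518 and 0.827). Iqca1l, named for its IQ motif, measured 3.05, 2.76 and 3.17 in PD and 2.69 and 3.10 in PD.SHR4 (-0.096 ± 0.19).

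**Figure D4:**
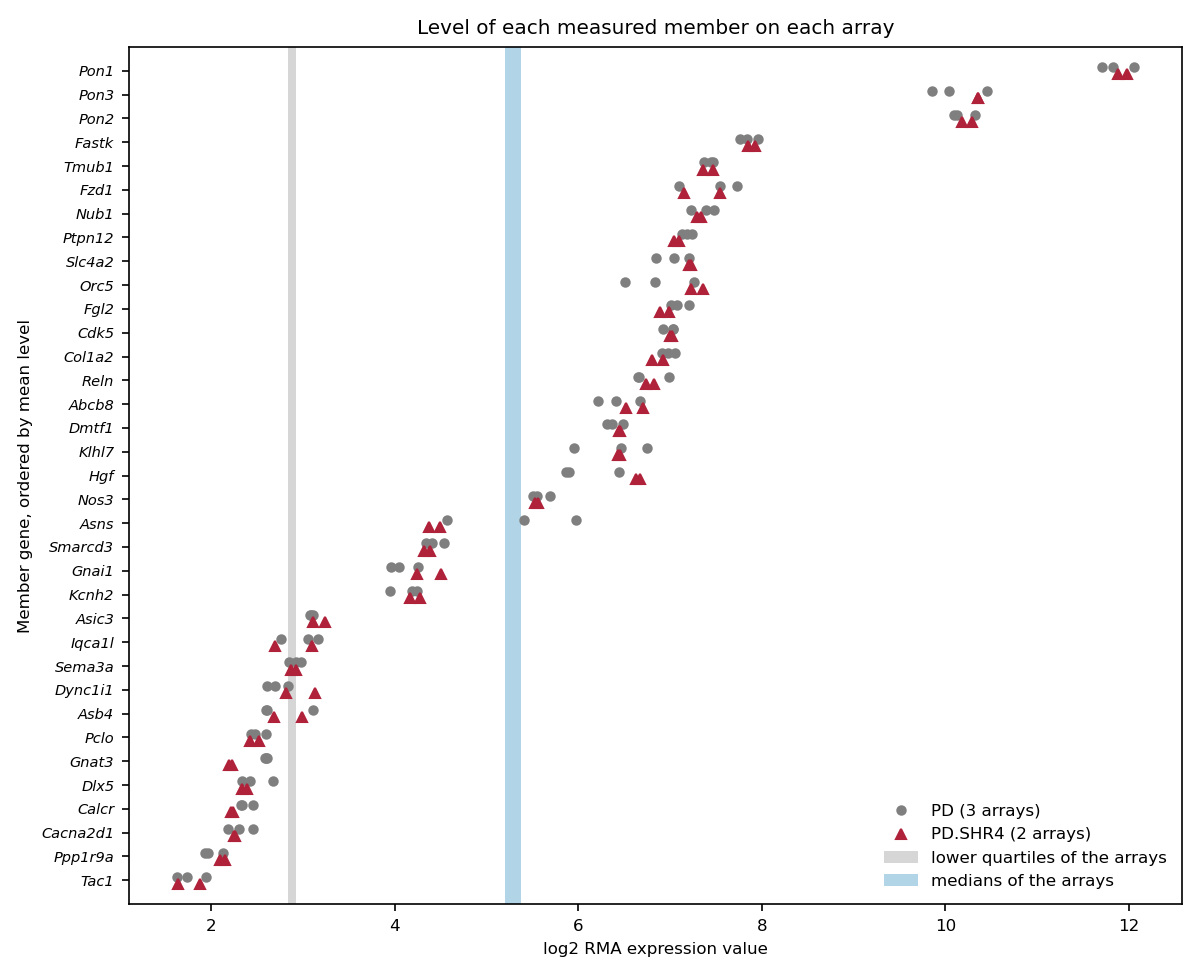
Log2 RMA value (x axis) of each of the 35 measured members on the PD arrays (circles) and the PD.SHR4 arrays (triangles), members ordered by mean value. The grey and blue bands span the lower quartiles (2.84 to 2.93) and medians (5.21 to 5.38) of the arrays. Of the members, 19 lie above the median and 7 below the lower quartile on every array; the order does not rank transcripts.

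Brightness split the members. On every array 19 lay above the array's median and 7 below its lower quartile, and 9 lay in between. The 7 dim members were Gnat3, Cacna2d1, Pclo, Calcr, Ppp1r9a, Dlx5 and Tac1, and the values carry no detection calls, so none of them is shown to be expressed in liver. Asb4, Dync1i1, Sema3a, Iqca1l and Asic3 had means of 2.80 to 3.12, near the lower quartiles (2.84 to 2.93). Their expression in liver is not shown either. The spread within PD was largest in Asns, with an SD of 0.71 (n = 3), and exceeded 0.3 in 6 members, the others being Klhl7 (0.40), Orc5 (0.38), Fzd1 (0.33), Hgf (0.32) and Pon3 (0.31). In 30 of 35 members the strain difference was smaller than the range of the PD arrays. The exceptions were Hgf, Gnat3, Asic3, Calcr and Dync1i1. PD array 1 was the lowest of all arrays in 12 members and PD array 2 the highest in 13.

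Members before and after Cd36 in gene order were compared by their counts. Before Cd36, 10 of 18 members were above 0 and 8 below, and after it 8 of 17 were above and 9 below. The median absolute log2 difference was 0.090 before Cd36 and 0.11 after it. Of the 427 measured chromosome 4 genes outside the span 5 passed the test, and their median absolute log2 difference was 0.15.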

How the data were processed

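Per the labels, the authors computed 1 log2 expression value per core gene and array with RMA in Affymetrix Expression Console; RMA subtracts background, quantile-normalises arrays and summarises probes. RMA and Partek are the tools in the submitters' processing notes, with versions and genome build not given in the sources used here. Of 8797 probe sets, GEO's platform annotation gave 7603 a single symbol, 409 several and 785 none; 7584 matched RefSeq (GRCr8) by gene ID, used for symbols and gene order, and promoter windows came from RefSeq. Of 14 genes with several probe sets the brightest was used. Coordinates are given for printed windows only.

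Strains were compared with limma 3.58.1 (R 4.3.3; lmFit and eBayes, two-sided, no covariate) on the 5 arrays together; p-values were adjusted by Benjamini-Hochberg over the whole table, with 0.05 as the threshold, and the fit was tested on simulated data. The number of arrays limits the precision. Members, lists and the naming rule (members of unadjusted p under 0.05, the 6 brightest, the 3 largest differences each way, the smallest p of each role group, the 2 measured neighbours on each side of Cd36, and up to 4 genes of smallest p of each partner list and of the other genes in the span) were chosen with earlier results of these data known; other genes are given in ranges. Alternatives left out each array or the dimmest 25% of probe sets, used the replicate number as a block, a trend with robust shrinkage, another quantile normalisation, median centring or array weights.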

Additional observations from a re-analysis of the deposited data

How the results depend on the processing

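No member passed in any fit that left out an array (0 each time), with the replicate number as a block, with a trend, without the dimmest 25% of probe sets (26 members tested), or after further quantile normalisation or median centring; limma's array weights alone called 3, Gnat3 (-0.38), Hgf (0.74) and Asns (-1.41), at adjusted p of 0.0374, 0.0222 and 0.0333. That fit weighted PD array 3 at 4.26 and PD array 2 at 0.304 and called 819 probe sets, and the cause was not tested. Members with an unadjusted p under 0.05 numbered 2, and 1 to 6 over the alternatives that kept both PD.SHR4 arrays. That was 2.86% to 17.1% of the members tested, where 10.5% to 28.0% of the probe sets tested had it. Over all alternatives the members' median stayed between -0.012 and 0.070. Adjusted p was 0.0374 to 0.664 for Gnat3, 0.0222 to 0.749 for Hgf and 0.0333 to 0.827 for Asns. All probe sets called numbered 82, and 0 to 55 without 1 array, 163 with the replicate block, 151 with a trend and 149 without the dimmest 25%. Without either PD.SHR4 array 0 were called by limma, with 737 and 710 at an unadjusted p under 0.05; the lone array was assumed to vary like PD. Among the other genes of the span the count of 1 became 0 to 1 without 1 array, 3 with the block, 2 each without dim probe sets, after quantile normalisation and after median centring, and 4 with array weights. The labels do not say that equal numbers pair arrays. The difference between arrays 1 and 2 correlated between strains at r = 0.072 over all probe sets and at r = 0.27 over the members. Differences near 0 changed sign. Leaving out 1 array gave -0.012 to 0.16 for Pon1, -0.0017 to 0.12 for Pon2, -0.011 to 0.092 for Fastk, -0.067 to 0.039 for Tmub1, -0.30 to 0.088 for Fzd1, -0.30 to 0.11 for Iqca1l, -0.054 to 0.0095 for Sema3a and -0.13 to 0.011 for Cacna2d1. Fastk was -0.011 with the block. Tmub1 was 0.022 after quantile normalisation, 0.039 after median centring and 0.028 with array weights, Sema3a 0.033 after median centring and 0.032 with array weights, and Cacna2d1 0.046 with array weights.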

Other observations

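Among the 11 measured genes of the span that are neither members nor left out by the rule, 2 (18.2%) had an unadjusted p under 0.05, against 13.8% of all probe sets, and both are named after their values were seen. Lrrc17, a secreted leucine-rich repeat protein, measured 2.16, 2.15 and 2.22 on the PD arrays and 2.60 and 2.46 on the PD.SHR4 arrays, below the lower quartile throughout (log2 difference 0.36 ± 0.12, SE; limma, adjusted p = 0.253). Gng11, a gamma subunit of G proteins, measured 5.75, 5.93 and 5.69 in PD and 5.48 and 5.36 in PD.SHR4 (-0.37 ± 0.13; limma, adjusted p = 0.284). Neither passed the test, and the strains did not overlap in either gene.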
